A study of Mus musculus with 4 samples.

Results

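The neurons described here were L5-Bcl6 excitatory neurons of the mouse ventromedial prefrontal cortex (vmPFC), split into barcode-high and barcode-zero neurons. They were chosen by the subtype name L5-Bcl6 in the deposited neuron table and then selected on their raw UMIs (unique molecular identifiers, 1 per captured RNA molecule) of the feature named barcode, with 5 or more UMIs against 0. The 3 unsorted libraries held 315 L5-Bcl6 neurons, of which 198 were barcode-high, 61 were barcode-zero and 56 carried 1 to 4 barcode UMIs and stayed out of the comparison. The 259 neurons compared were a small part of the 7765 unsorted and 9368 total excitatory neurons in the table. The libraries came from male C57BL/6 mice that were 8 weeks old when injected, and each unsorted library came from 1 mouse. The mice had received rAAV2-retro, a virus taken up by axon terminals, whose short CAG promoter drove EGFP with a barcode particular to each injected site, in the agranular insular cortex, dorsomedial striatum, basolateral amygdala, mediodorsal thalamus and lateral hypothalamus of 1 hemisphere. Weeks later the prelimbic and infralimbic areas were cut from slices held with the glutamate receptor blockers CNQX and D-AP5, dissociated and sequenced by droplet single-cell RNA-seq. Both groups therefore shared the injections, the mouse and the library, and no uninjected animal was analysed here. A further library of EGFP-sorted cells pooled from several mice was 1 sample and entered no main test.

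Layer 5 extratelencephalic neurons are the thick-tufted output cells of cortex, with axons that leave the telencephalon for thalamus, hypothalamus, midbrain and below. Fezf2 and Bcl11b are transcription factors that set their identity, and Pou3f1 and Bcl6 mark subsets of them. Retrograde viruses are taken up at axon terminals and carried to the nucleus, so barcode RNA in a cell body is read as an axon at an injected site. The feature named barcode is taken here as the viral barcode transcripts of every target together, since the files do not say how it was built, and it does not show which target a neuron reached. A neuron without it may have had no axon there, may not have taken up the virus, or may have lost the barcode molecules to sampling, and these cases cannot be told apart in this design.

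The subtype label was checked against its markers in the 3 unsorted libraries summed by subtype. Bcl6 stood at 62.1 ± 1.66 CPM (counts scaled to a total of 1000000 per sum; SD, n = 3) in L5-Bcl6 neurons, and at 4.45 ± 1.49 CPM in L5-S100b neurons, the next of 7 subtypes. Pou3f1 was at 293 ± 25.0 CPM against 41.6 ± 5.28 CPM in L2/3-Calb1 neurons, the next subtype. Bcl11b was likewise highest in L5-Bcl6 neurons, at 447 ± 24.9 CPM. Fezf2 and Crym, a thyroid hormone binding protein, each ranked 2 of 7, at 256 ± 21.9 CPM and 389 ± 30.1 CPM. The genes that name the other subtypes were low here: Calb1 at 5.49 CPM, S100b at 5.78 CPM, Npy at 1.89 CPM, Syt6 at 1.53 CPM and Htr2c at 1.42 CPM, while Rorb was at 17.5 ± 6.91 CPM. These markers are genes of the clustered cells, so the levels describe the label and do not test it.

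The barcode values that chose the members were broad. Barcode-zero neurons numbered 22, 19 and 20 in libraries 1 to 3, which was 16.3%, 20.2% and 23.3% of the L5-Bcl6 neurons of each library. Barcode-high neurons numbered 86, 60 and 52, which was 62.7% ± 1.91 of them (SD, n = 3). Among barcode-high neurons the median was 23 barcode UMIs in library 1 and 24.5 in both others, and the highest neurons of the libraries held 449, 171 and 253. Just outside the limits, 25 neurons had 1 barcode UMI and 7 had 4, and 4 neurons had exactly 5. The limit of 5 therefore ran through a sparse stretch of the distribution.

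Barcode UMIs in cells that should not project were rare. In 3043 unsorted cells outside the neuron table that held 20 or more UMIs of the microglial genes C1qa, C1qb, C1qc, Ctss and Cx3cr1 and no Slc17a7, 3.58% had a barcode UMI (95% Wilson interval 2.98% to 4.30%) at a median depth of 4115 UMIs. In L5-Bcl6 neurons the share was 80.6% (75.9% to 84.6%) at a median of 23703 UMIs. With 5 or more UMIs the shares were 0.0986% (0.0335% to 0.289%), or 3 microglial cells, and 62.9% (57.4% to 68.0%). The intervals cover counting error only, and the depths differed between the cell types.

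**Figure D1:**
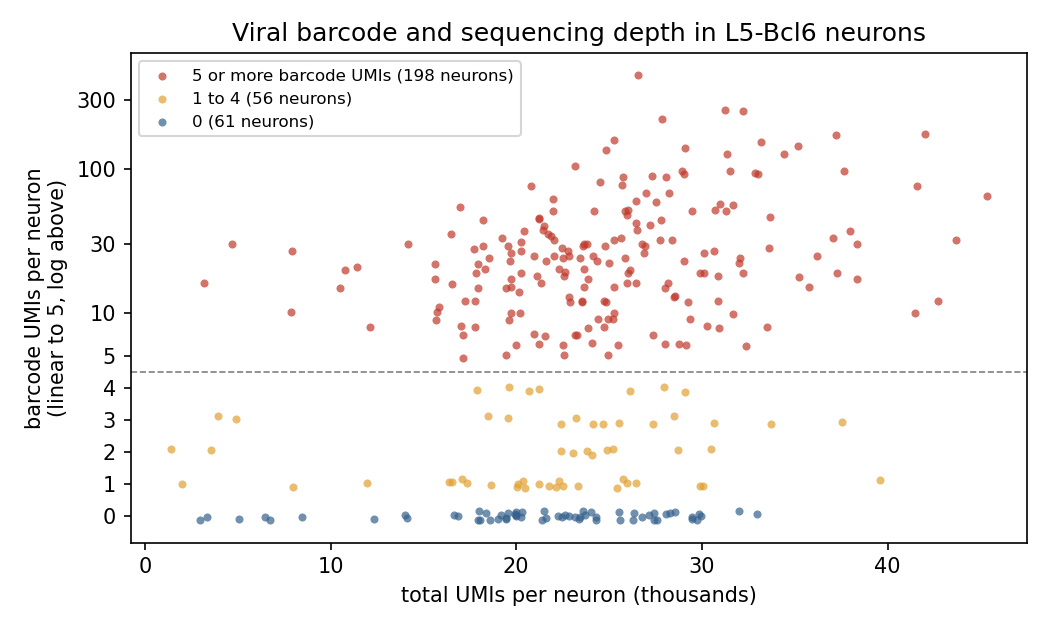
Each point is 1 of 315 unsorted L5-Bcl6 neurons, with its total UMIs on the horizontal axis and its barcode UMIs on the vertical axis (linear to 5, logarithmic above, with slight jitter). The dashed line separates neurons of 5 or more barcode UMIs (198) from those of 1 to 4 (56) and 0 (61), and the deepest barcode-zero neuron had 32956 total UMIs.

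Barcode-high neurons were sequenced somewhat deeper. Their median depth was 23579, 24825 and 26810 UMIs per neuron in libraries 1 to 3, against 20833, 23362 and 22542 in barcode-zero neurons. The difference of the medians was 2826 ± 1404 UMIs (SD, n = 3), higher in 3 of 3 libraries, with an exact two-sided paired permutation p of 0.25, which is the smallest that 3 pairs allow. Barcode-high neurons also had more genes detected, by 277 ± 206 at the median. At an equal depth of 10000 UMIs the medians were 3847 ± 11.3 genes and 3843 ± 24.2 genes, and the difference of 3.59 ± 23.1 genes was smaller than the spread between libraries (exact permutation p = 1). Mitochondrial genes gave 8.35% ± 0.113 of the summed UMIs in barcode-high and 8.14% ± 0.428 in barcode-zero neurons, a difference of 0.209 ± 0.375 percentage points (exact permutation p = 0.5).

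Expression was then compared on counts summed over the neurons of each group and library, which gave 6 sums. The barcode-high sums held 1447312 to 1998623 UMIs and the barcode-zero sums 412016 to 454725, so counting error was larger on the barcode-zero side. In edgeR's quasi-likelihood test with the library as a block, 8752 genes passed the filter on low counts and 6 were called. A call required an adjusted p below 0.05 together with a change of 0.5 or more, in either direction, on the log2 scale. That is 0.0686% of the genes tested. Levels in barcode-high neurons exceeded those in barcode-zero neurons for 4 of them and fell short for 2. At an unadjusted p under 0.05 there were 278 genes higher (3.18% of those tested) and 301 lower (3.44%). The median log2 fold change over all genes tested was -0.0033.

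These few calls were close to the threshold, with adjusted p-values of 0.0424 to 0.0452 in edgeR, and they depended on the settings. DESeq2 called 0 genes, with 46 at an unadjusted p under 0.05, and edgeR with RLE normalization called 0 genes, with 574 at an unadjusted p under 0.05 and a lowest adjusted p of 0.0532. Among neurons of 10000 to 40000 UMIs, edgeR also called 0 genes, with 502 at an unadjusted p under 0.05. Without library 3 the count was 31, and it included all 6. Without library 1 and without library 2 the counts were 5 and 4, of which 1 and 2 were among the 6, and without the library block only Pcp4 was called. The 6 genes are therefore given below with the values of every library, and none of them was called in every alternative.

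Pcp4 encodes a small regulator of calmodulin and is a familiar marker of deep-layer neurons. It was at 334, 338 and 301 CPM in the barcode-high sums of libraries 1 to 3 and at 138, 194 and 262 CPM in the barcode-zero sums. The groups did not overlap, and the gap was widest in library 1 and narrowest in library 3. The log2 fold change was 0.71 ± 0.13 (SE), or 1.64-fold, with an adjusted p of 0.0424 in edgeR. It was called again in 8 of 14 alternatives, more than any of the other called genes, and its log2 fold change ranged from 0.50 without library 1 to 1.02 without library 3. Neurons of 1 to 4 barcode UMIs had 201, 64.2 and 233 CPM in libraries 1 to 3, and their mean of 166 ± 89.6 CPM was below both group means. In library 1 this level lay between the barcode-zero and barcode-high sums, and in libraries 2 and 3 it lay below both. Pcp4 (ENSMUSG00000090223) lies at chr16:96467606-96525793 on the plus strand of mm10.

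Marcksl1, which encodes a membrane-bound protein that binds actin and calmodulin and is abundant in growing neurites, had 25.0, 43.4 and 26.9 CPM in barcode-high and 7.28, 13.2 and 2.32 CPM in barcode-zero sums. All 3 barcode-high sums lay above all barcode-zero sums. Its barcode-zero sums held 3, 6 and 1 counts, too few to pass the count filter alone. The gene entered the test through its barcode-high sums, so the lack of overlap is a description only. The log2 fold change of 2.04 ± 0.38, or 4.12-fold, had an adjusted p of 0.0424 in edgeR. The barcode-zero level rested on 10 counts in 4 of 61 neurons, with 5 of them in 1 neuron, and the barcode-high level on 155 counts in 26 of 198 neurons, with 19 in 1 neuron. In the sorted library the order was the other way round, with 8.17 CPM (exact Poisson interval 4.08 to 14.6) in barcode-high and 41.9 CPM (15.4 to 91.3) in barcode-zero neurons, from 11 and 6 counts. The gene (ENSMUSG00000047945) is at chr4:129513581-129515985 on the plus strand.

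Adgra1, an adhesion G protein-coupled receptor with no established ligand, had the smallest SD relative to its mean of the 6 genes, in both groups. It stood at 154, 152 and 146 CPM in barcode-high and at 87.4, 96.8 and 97.4 CPM in barcode-zero neurons, with no overlap. The log2 fold change was 0.68 ± 0.14 (edgeR adjusted p = 0.0424), it kept this direction in 14 of 14 alternatives, and it was called in 3 of them. Neurons of 1 to 4 barcode UMIs had 141 ± 28.5 CPM, between the groups. In the sorted library the levels were 189 CPM (166 to 213) and 189 CPM (124 to 275). Adgra1 (ENSMUSG00000025475) is at chr7:139834174-139878088 on the plus strand.

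Cpne8 encodes a copine, a protein that binds phospholipids when calcium is present. It had 53.5, 60.5 and 36.6 CPM in barcode-high and 17.0, 28.6 and 16.2 CPM in barcode-zero sums, again without overlap. The log2 fold change was 1.27 ± 0.26, or 2.42-fold (edgeR adjusted p = 0.0452), and 4 of 14 alternatives called it. A UMI of Cpne8 was found in 114 of 198 barcode-high and 19 of 61 barcode-zero neurons, so no single neuron carried the difference, and the most in 1 neuron was 9 and 3 counts. It lies on the minus strand at chr15:90487482-90679432 (ENSMUSG00000052560).

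Tesc encodes tescalcin, a calcium-binding protein that regulates a sodium-proton exchanger. It was lower in barcode-high neurons, at 53.0, 34.2 and 47.7 CPM against 146, 63.8 and 58.0 CPM. The groups did not overlap, but the barcode-zero sum of library 1 stood far above the other barcode-zero sums. The log2 fold change was -0.99 ± 0.20 (edgeR adjusted p = 0.0424), and -0.58 without library 1, where it was not called. It was called in 6 of 14 alternatives, and the sorted library had the same order, with 31.2 CPM (22.5 to 42.2) in barcode-high and 83.9 CPM (43.3 to 147) in barcode-zero neurons. Tesc (ENSMUSG00000029359) is at chr5:118027743-118061878 on the plus strand.

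Camk2d, the delta subunit of calcium/calmodulin-dependent kinase II, is named although it did not move the same way in 3 of 3 libraries, a choice made after its values were seen. It had 11.5, 1.31 and 6.22 CPM in barcode-high and 63.1, 24.2 and 4.64 CPM in barcode-zero sums, so library 3 went the other way. The log2 fold change was -2.26 ± 0.45 (edgeR adjusted p = 0.0424). It rested on 34 counts in barcode-high and 39 in barcode-zero neurons, the latter in 10 of 61 neurons, and the gene did not pass the count filter without library 1. Camk2d (ENSMUSG00000053819) is on the plus strand at chr3:126596302-126846326.

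**Figure D2:**
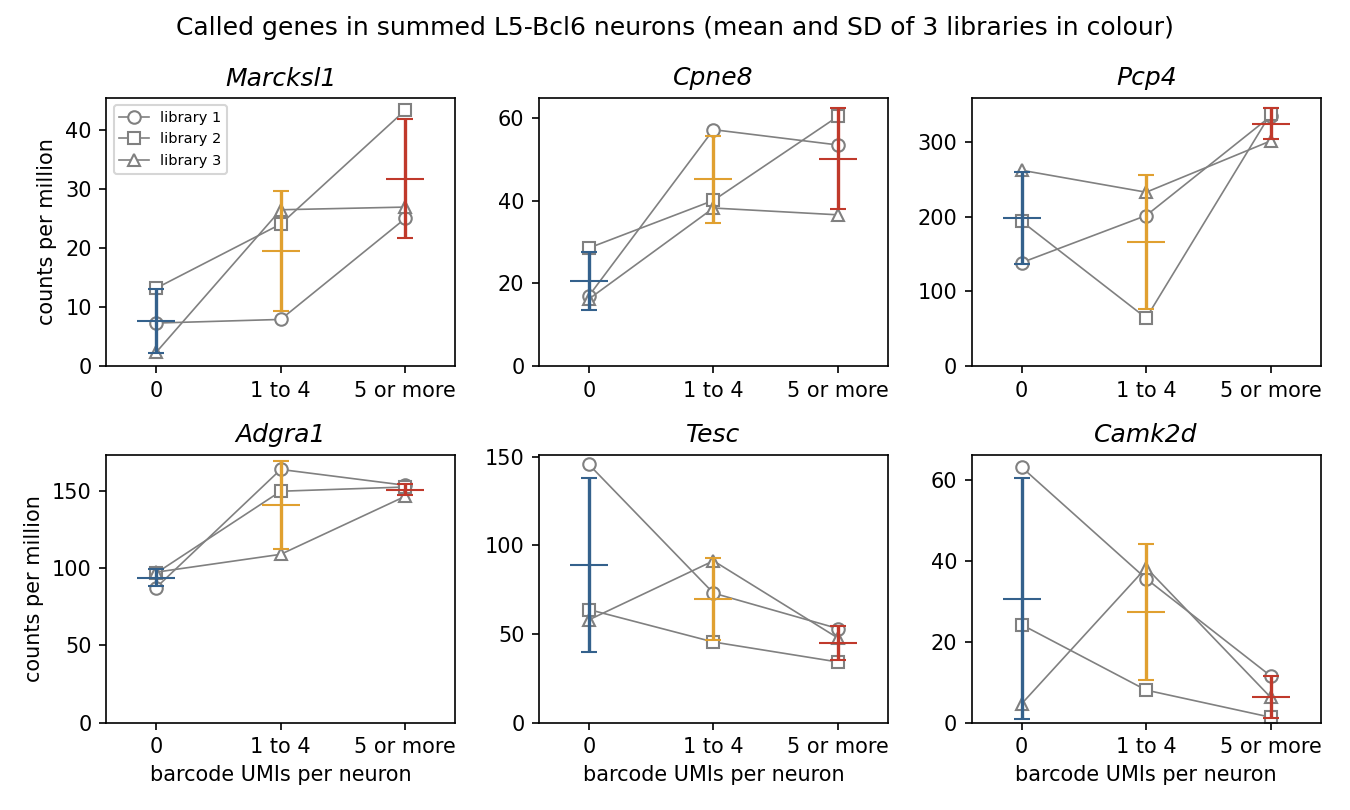
Levels in CPM of the 6 called genes in neurons of 0, 1 to 4 and 5 or more barcode UMIs, summed per library. Open symbols joined by lines are the 3 unsorted libraries, and coloured bars give the mean and SD over them. The mean of Pcp4 in neurons of 1 to 4 barcode UMIs was below both other means, and Camk2d in library 3 was not lower in barcode-high than in barcode-zero neurons.

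Lypd1 and mt-Nd3 passed the adjusted p of edgeR, each at 0.0424, but stayed under the fold limit. Lypd1 encodes a membrane-anchored protein that modulates nicotinic acetylcholine receptors, and had 721, 762 and 670 CPM in barcode-high against 803, 1089 and 902 CPM in barcode-zero neurons, a log2 fold change of -0.37 ± 0.07. All barcode-high sums lay below all barcode-zero sums. The complex I subunit mt-Nd3 had a log2 fold change of 0.32 ± 0.06, and the other 12 mitochondrially encoded genes had none under an unadjusted p of 0.05.

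Several genes that moved the same way in 3 of 3 libraries had the next smallest p-values and did not pass the test. On the higher side these were Scg2, a granin of dense-core vesicles, with 27.5, 48.6 and 35.9 CPM against 19.4, 11.0 and 9.27 CPM (log2 fold change 1.50 ± 0.34, edgeR adjusted p = 0.0991). Sema3c, a secreted semaphorin, had 14.0, 33.5 and 15.9 CPM against 0, 11.0 and 2.32 CPM, and a log2 fold change of 2.20 ± 0.51 that rested on 6 barcode-zero counts (edgeR adjusted p = 0.108). Plxna1, a plexin that transduces semaphorin signals, had 23.5, 21.0 and 25.6 CPM against 9.71, 6.60 and 6.95 CPM (1.58 ± 0.40, edgeR adjusted p = 0.216). Its barcode-zero level rested on 10 counts. In the sorted library its order was reversed, with 33.4 CPM in barcode-high and 62.9 CPM in barcode-zero neurons, from 45 and 9 counts. Tmem196, a membrane protein, and Cxcl12, a chemokine, had log2 fold changes of 2.11 ± 0.49 and 0.48 ± 0.12. That of Tmem196 rested on 6 barcode-zero counts. Scg2, Sema3c, Plxna1 and Tmem196 entered the test through their barcode-high sums, since their barcode-zero sums were too low to pass the count filter alone.

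On the lower side, Slc30a3 encodes ZnT3, which loads zinc into synaptic vesicles. It had 26.0, 15.1 and 29.7 CPM in barcode-high against 92.2, 33.0 and 32.5 CPM in barcode-zero neurons, with the largest value in library 1 (log2 fold change -1.17 ± 0.27, edgeR adjusted p = 0.118). Cplx2, a complexin that controls vesicle fusion, had 134, 108 and 163 CPM against 289, 150 and 190 CPM, and its groups overlapped (-0.64 ± 0.14, edgeR adjusted p = 0.0671). Necab2, a neuronal calcium-binding protein, was at 24.5, 13.8 and 26.9 CPM against 77.7, 39.6 and 30.1 CPM (-1.19 ± 0.27). Without library 1 the log2 fold changes of Slc30a3, Cplx2 and Necab2 shrank to -0.56, -0.33 and -0.79, and without library 3 all were called in edgeR, at -1.60, -0.84 and -1.61. The linker histone gene Hist1h1d and the ribosomal protein gene Rpl38 had log2 fold changes of -1.03 ± 0.25 and -0.29 ± 0.06.

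In library 1 the barcode-zero neurons stood apart for Tesc, Camk2d, Slc30a3, Necab2 and Cplx2 together, each being higher there than in both other barcode-zero sums. That group of 22 neurons held 5 with under 10000 UMIs, against 0 and 1 in libraries 2 and 3, and the barcode-high group of library 1 held 4 of 86. Its summed microglial, inhibitory, oligodendrocyte, astrocyte and endothelial markers were at 9.71, 9.71, 87.4, 158 and 26.7 CPM, inside the range of the other barcode-zero sums for the microglial and endothelial lists, above it for the inhibitory and astrocyte lists and below it for the oligodendrocyte list. The part of these values in the result was not tested.

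Over the 18 genes named so far, neurons of 1 to 4 barcode UMIs had a mean level between barcode-zero and barcode-high neurons for 16 genes. The exceptions were Pcp4, which was below both, and Plxna1, at 24.1 CPM against 23.4 and 7.75 CPM. These neurons entered neither group, but the genes were picked for the difference between the groups, so the count is a description. In the sorted library, 11 of the 18 genes and 4 of the 6 called genes had the same direction, from 43 barcode-high and 5 barcode-zero neurons in 1 sample with no test.

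The genes of layer 5 extratelencephalic identity were compared next, since these genes mark neurons with axons to targets outside the telencephalon. Of 20 genes in the list 16 were tested, and none was called. At an unadjusted p under 0.05, 3 were higher and none lower, and 14 of the 16 log2 fold changes were above 0, against 49.4% of all genes tested. The list's median was 0.12, and the groups of 3 did not overlap for 3 of its 16 genes, against 12.2% of all genes tested. Vat1l, a marker of large layer 5 projection neurons, had 118, 135 and 106 CPM in barcode-high and 82.5, 99.0 and 83.5 CPM in barcode-zero neurons (log2 fold change 0.44 ± 0.14, edgeR adjusted p = 0.591). Fezf2 had 0.29 ± 0.11 and Pou3f1 0.25 ± 0.10, with 3 of 3 libraries higher for each and edgeR adjusted p-values of 0.647 and 0.706. Bcl6, the gene that names the subtype, had 65.4 and 54.7 CPM on average (0.25 ± 0.18, edgeR adjusted p = 0.884). The list's summed level was 2571, 2861 and 2648 CPM against 2272, 2665 and 2506 CPM, higher in 3 of 3 libraries with overlapping groups.

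Genes of other projection classes were without calls and mixed in direction. In the list of near-projecting identity, Lypd1, given above, was the only 1 of 8 genes tested. The summed level of that list was 737, 773 and 682 CPM in barcode-high against 808, 1111 and 918 CPM in barcode-zero neurons, without overlap, and nearly all of it was Lypd1. Of 10 tested genes of intratelencephalic and upper layer identity, 6 were above 0, with a median of 0.05. Lhx2, a LIM homeodomain factor of upper-layer neurons, was at 48.5, 42.7 and 48.4 CPM against 92.2, 74.8 and 62.6 CPM and did not overlap between groups (log2 fold change -0.72 ± 0.18, edgeR adjusted p = 0.216). Lmo4, a LIM-only transcriptional cofactor, and Etv1, an ETS factor of layer 5, had 0.24 ± 0.08 and 0.28 ± 0.12. Etv1 went the other way in library 3, with 210 CPM in barcode-high and 227 CPM in barcode-zero neurons. Its log2 fold change ran from 0.12 to 0.48 over the alternatives. Rorb, a nuclear receptor of layer 4 and upper-layer neurons, was at 19.4 ± 4.12 and 21.1 ± 17.6 CPM, with a log2 fold change of -0.09 ± 0.36 whose sign changed in DESeq2 and without library 3. Among 6 tested genes of layer 6 corticothalamic and L6b identity none had an unadjusted p under 0.05, and Hs3st4, a heparan sulfate sulfotransferase, had 0.50 ± 0.30. Of the genes the study linked to projections, a list chosen in part on these samples, 10 were tested, 1 was higher and 1 lower at an unadjusted p under 0.05, and the median was -0.03. The member that was lower was the neuronal pentraxin receptor gene Nptxr, at -0.25 ± 0.11 (edgeR adjusted p = 0.726). It had 258, 240 and 263 CPM in barcode-high against 405, 251 and 253 CPM in barcode-zero neurons, so the difference lay in library 1, library 3 went the other way, and the log2 fold change without library 1 was -0.0011.

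Responses to virus or injury were looked for in 4 lists. Most interferon and antigen presentation genes were too low to test, with 3 of 14 tested and none under an unadjusted p of 0.05. Of 6 tested genes of the DNA damage response, Mdm2, the ubiquitin ligase of p53, was lower at -0.53 ± 0.24 (edgeR adjusted p = 0.732) and none was higher at that unadjusted level, while 4 of the 6 were above 0 and the median was 0.21. Of 10 tested genes of the unfolded protein response, Xbp1, its transcription factor, had -0.42 ± 0.15 (edgeR adjusted p = 0.647), while 7 of the 10 were above 0 and the median was 0.06. Among 13 tested host factors of adeno-associated virus entry, Tm9sf2, a Golgi protein, was at 0.33 ± 0.15 and Rpsa, which encodes the laminin receptor, at -0.18 ± 0.08. Neither passed the adjustment, and the median of that list was 0.12.

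Immediate early genes, which neurons switch on within minutes of activity, had 16 of 18 tested members above 0 and a median of 0.14, and none was called. Nr4a3, a nuclear receptor, had 0.57 ± 0.24 and Homer1, a postsynaptic scaffold with an activity-induced form, had 0.22 ± 0.10 (edgeR adjusted p of 0.722 and 0.732). The summed level of the list did not keep this direction. It was 3418, 2704 and 2917 CPM in barcode-high and 2755, 1707 and 3985 CPM in barcode-zero neurons, so library 3 was reversed and the groups overlapped.

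Genes of excitability and synapses were likewise without calls. Of 16 tested HCN and potassium channel genes, Kcnn2, a calcium-activated potassium channel, had 0.31 ± 0.15, and no member was lower at an unadjusted p under 0.05. Of 15 tested glutamate receptor and synapse genes, the AMPA receptor subunit gene Gria1 had 396, 367 and 379 CPM in barcode-high and 454, 444 and 475 CPM in barcode-zero neurons (-0.27 ± 0.08, edgeR adjusted p = 0.437). The obligatory NMDA receptor subunit gene Grin1 had 0.31 ± 0.12. None of 11 neuromodulator receptor genes had an unadjusted p under 0.05, and the nociceptin receptor gene Oprl1 was at -0.40 ± 0.23.

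Axon genes gave values in both directions. Of 15 tested axon guidance genes, the ephrin receptor genes Epha4 and Epha7 were at -0.33 ± 0.11 and -0.34 ± 0.13, and their ligand gene Efna5 was at 0.47 ± 0.22. Epha7 went the other way in library 3, with 164 CPM in barcode-high and 153 CPM in barcode-zero neurons. The gap of Efna5 was widest in library 1, at 51.5 against 21.8 CPM. Over the alternatives Epha7 ran from -0.55 to -0.16 and Efna5 from 0.22 to 0.62. None of 15 genes of the axonal cytoskeleton and transport had an unadjusted p under 0.05, with the neurofilament gene Nefm at 0.27 ± 0.15. Among excitatory neuron markers, Nrgn, the postsynaptic calmodulin-binding neurogranin, had 0.17 ± 0.06, while the transcription factor gene Neurod2 and the splicing factor gene Rbfox3 had -0.31 ± 0.13 and -0.22 ± 0.10. Nrgn was at 5247, 5282 and 5138 CPM in barcode-high against 3980, 4882 and 5049 CPM in barcode-zero neurons. Its gap was widest in library 1, and its log2 fold change ran from 0.07 to 0.26 over the alternatives. Inhibitory and microglial markers were too low for any to be tested. Their summed levels were 6.57 to 11.7 CPM and 13.1 to 15.9 CPM in barcode-high, and 4.40 to 9.71 CPM and 2.32 to 46.2 CPM in barcode-zero sums.

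**Figure D3:**
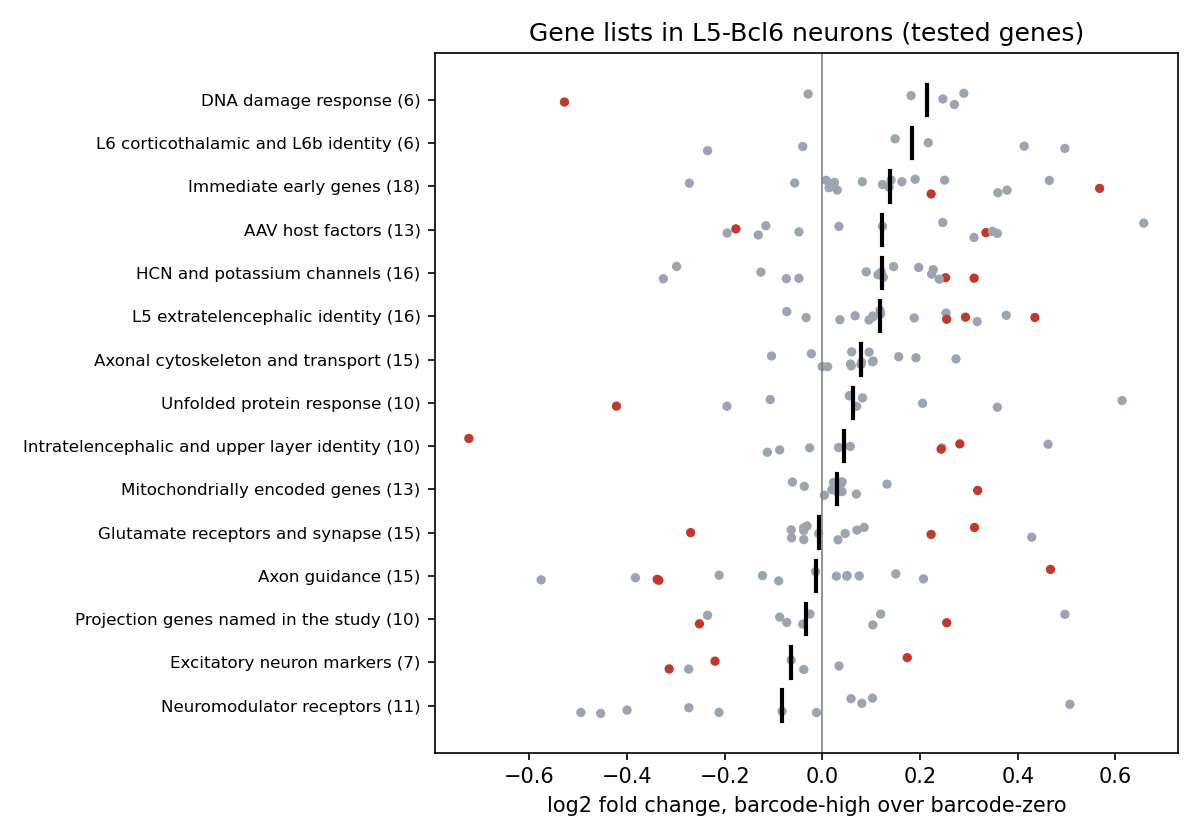
Log2 fold changes of barcode-high over barcode-zero L5-Bcl6 neurons for the gene lists with at least 5 tested genes, with the number tested in brackets. Each point is a gene, red where its unadjusted p was under 0.05, and black bars are medians; the medians ran from -0.08 for neuromodulator receptors to 0.21 for the DNA damage response, and no gene in these lists was called.

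Whether the barcode contrast differed from that in other deep-layer subtypes was tested with an interaction term in the same kind of fit. L5-S100b neurons gave 751 barcode-high and 171 barcode-zero neurons, and their own contrast called 278 of 11487 genes (2.42%). L6-Syt6 neurons gave 1194 and 2233, and called 309 of 13028 genes (2.37%). Those groups hold more neurons than the L5-Bcl6 groups, so the counts of calls cannot be compared directly. The difference of the contrast between L5-Bcl6 and L5-S100b neurons was called for 61 of 10099 genes (0.604%), and between L5-Bcl6 and L6-Syt6 neurons for 120 of 12574 genes (0.954%). The first count was 15 without library 1 and 30 without library 2, and the second was 59, 65 and 79 without libraries 1, 2 and 3. Of the 61 genes, 35 were called in the contrast of L5-S100b neurons itself and 3 in that of L5-Bcl6 neurons. Of the 120, 40 were called in the contrast of L6-Syt6 neurons and 6 in that of L5-Bcl6 neurons. A gene can be in both counts, as Marcksl1 was for L6-Syt6 neurons.

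Against L5-S100b neurons, the smallest p belonged to Cdh13, a GPI-anchored cadherin. In L5-Bcl6 neurons it was at 306, 326 and 296 CPM in barcode-high and 308, 413 and 327 CPM in barcode-zero sums, and in L5-S100b neurons at 49.5, 47.3 and 49.3 against 147, 183 and 156 CPM. The contrast was -0.18 ± 0.09 in L5-Bcl6 and -1.70 ± 0.10 in L5-S100b neurons, a difference of 1.51 ± 0.12 (edgeR adjusted p = 3.33e-12). Ntng1, a netrin-related membrane protein, followed the same order, with 0.15 ± 0.13 and -0.87 ± 0.10. The protocadherin gene Pcdh7 had -0.33 ± 0.10 in L5-Bcl6 neurons and 1.04 ± 0.11 in L5-S100b neurons, a difference of -1.38 ± 0.16 (edgeR adjusted p = 8.61e-08). Stxbp6, which binds SNARE proteins, and Snap25, a SNARE protein of synaptic vesicle fusion, were near 0 in L5-Bcl6 neurons, at 0.09 ± 0.10 and 0.03 ± 0.06, and higher in barcode-high L5-S100b neurons, by 1.41 ± 0.15 and 0.54 ± 0.04. Slc30a3 had opposite signs, -1.17 ± 0.27 and 0.82 ± 0.10, with a difference of -1.97 ± 0.30 (edgeR adjusted p = 6.31e-05) that was not called without library 1.

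Against L6-Syt6 neurons, Cck, which encodes the peptide cholecystokinin, led the list. Its contrast was -0.29 ± 0.08 in L5-Bcl6 neurons, with 698, 653 and 684 CPM against 1000, 789 and 700 CPM, and 0.93 ± 0.04 in L6-Syt6 neurons (difference -1.20 ± 0.08, edgeR adjusted p = 7.52e-18). C1ql3, a secreted synaptic organizer, and Hspa8, a constitutive chaperone, had -0.17 ± 0.08 and -0.14 ± 0.07 against 1.30 ± 0.09 and 0.48 ± 0.02. Both genes with calls in L5-Bcl6 neurons in this set went the other way in L6-Syt6 neurons. Pcp4 had 0.71 ± 0.13 against -0.26 ± 0.01 (difference 0.99 ± 0.12, edgeR adjusted p = 4.93e-08), at much higher levels in L6-Syt6 neurons, 1995 ± 157 CPM in barcode-high and 2432 ± 175 CPM in barcode-zero. Marcksl1 had 2.04 ± 0.38 against -1.37 ± 0.12, a difference of 3.39 ± 0.45 (edgeR adjusted p = 4.14e-07). The gene 1110008P14Rik had 0.28 ± 0.08 and -0.29 ± 0.02.

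**Figure D4:**
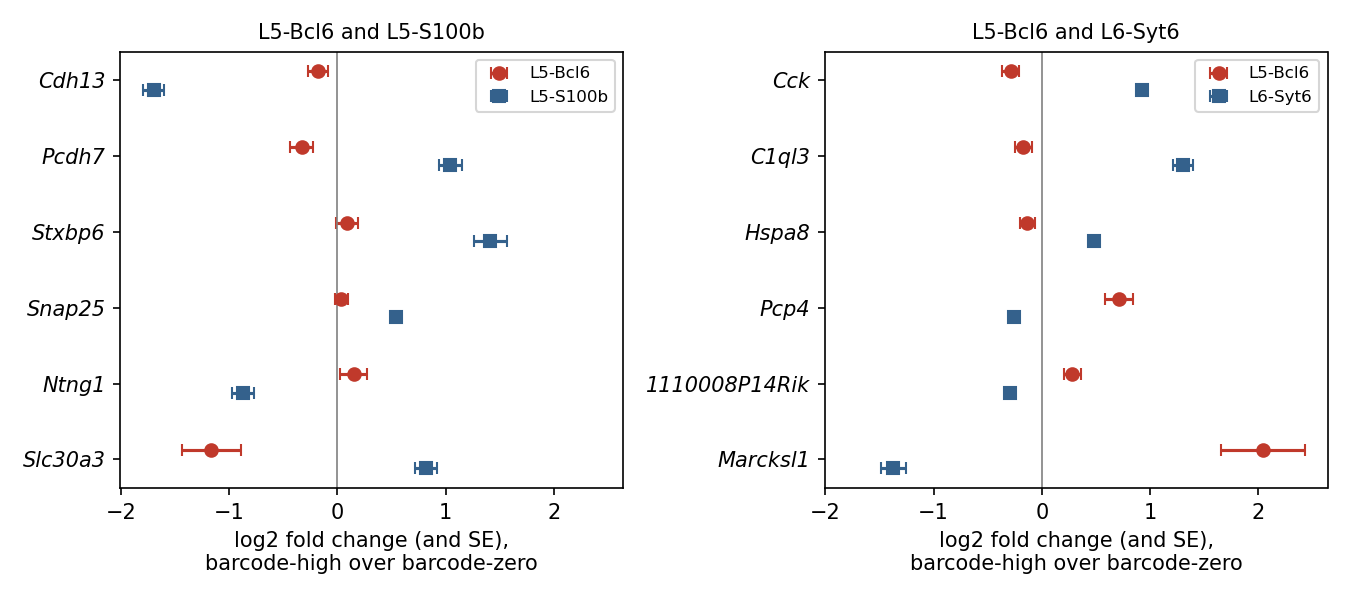
Log2 fold changes with SE of barcode-high over barcode-zero neurons, in L5-Bcl6 neurons (circles) and in L5-S100b or L6-Syt6 neurons (squares), for the 6 genes of smallest p in each test of the difference. Cdh13 lay at -0.18 in L5-Bcl6 and -1.70 in L5-S100b neurons, and Cck at -0.29 in L5-Bcl6 and 0.93 in L6-Syt6 neurons.

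**Figure D5:**
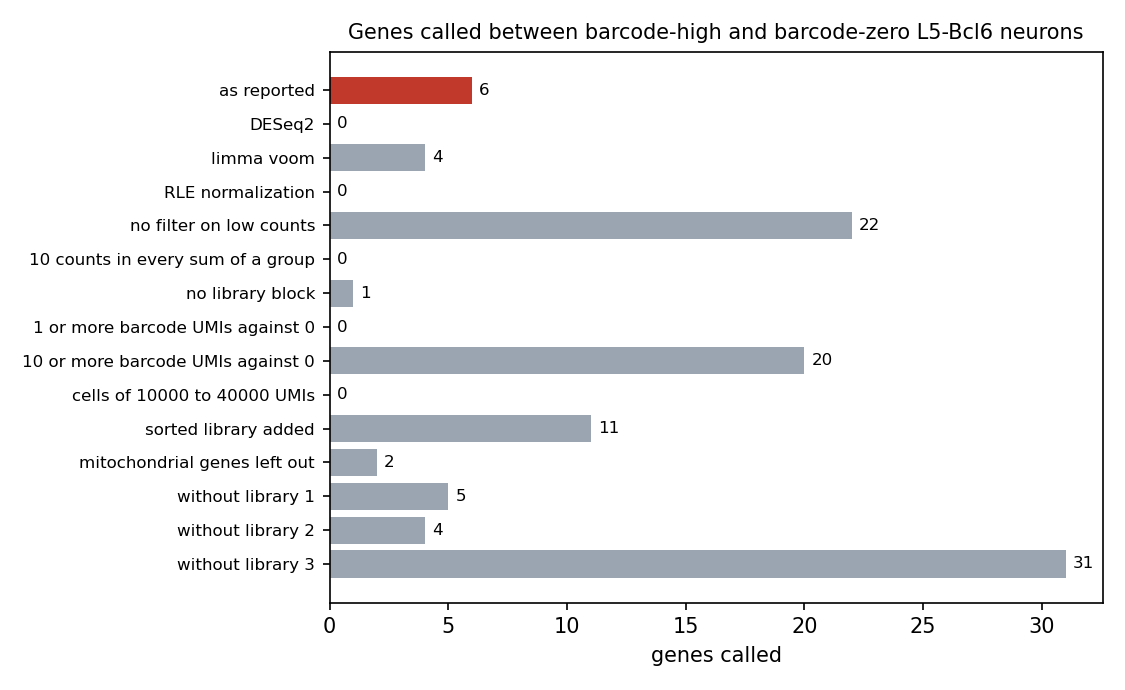
Number of genes called between barcode-high and barcode-zero L5-Bcl6 neurons as reported (6) and under each of 14 alternatives. The count ran from 0, for instance in DESeq2, to 31 without library 3.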

How the data were processed

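The authors aligned the reads to mm10 with the barcode sequences added and deposited raw UMI counts of called cells (Cell Ranger 3.0.2 per the file headers), together with a table of the subtype of each excitatory neuron after their own clustering and removal of low-quality cells. Doublets were treated only as the authors did before deposit. No cell barcode of an L5-Bcl6 neuron was shared between libraries. The deposited counts were summed per library and group without the barcode feature and tested in edgeR 4.0.16 (TMM, filterByExpr, quasi-likelihood, Benjamini-Hochberg adjustment over all genes), with DESeq2 1.42.0 and limma voom as alternatives, and the procedure was tested on simulated data. The library was a block because both groups came from the same mouse, and deviations of same-library sums from their group means correlated at 0.0110 to 0.0405. The unsorted libraries held 83039497 to 87809114 UMIs in 7243 to 8040 cells. The members and the gene lists were chosen with earlier results of these data known. Named genes were the called genes that moved the same way in 3 of 3 libraries, up to 6 more per direction by unadjusted p, up to 4 per list, the subtype name genes, and 6 per test of a difference between subtypes. Gene positions are from GENCODE (GRCm38). No sequences are shown, since the comparison rests on gene counts. Some results are not reported here.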

Additional observations from a re-analysis of the deposited data

Results flagged for a closer look

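For 12 gene results the barcode contrast differed between L5-Bcl6 neurons and another subtype by an interaction term in edgeR (adjusted p under 0.05). Against L5-S100b neurons the log2 differences were 1.51 for Cdh13, -1.38 for Pcdh7, -1.34 for Stxbp6, -0.51 for Snap25, 1.02 for Ntng1 and -1.97 for Slc30a3. Against L6-Syt6 neurons they were -1.20 for Cck, -1.45 for C1ql3, -0.61 for Hspa8, 0.99 for Pcp4, 0.59 for 1110008P14Rik and 3.39 for Marcksl1. Leaving out library 1 ended the calls of Snap25 (-0.38) and Slc30a3 (-1.49), and leaving out library 2 that of Snap25 (-0.47). The numbers of neurons differed between the subtypes, and their part in these differences was not tested.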

How the results depend on the processing

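The count of 6 called genes became 0 with DESeq2, with RLE normalization, with 1 or more barcode UMIs against 0, in neurons of 10000 to 40000 UMIs, and with a filter of 10 counts in every sum of either group (9231 genes, lowest adjusted p 0.0611). At an unadjusted p under 0.05 those fits had 46, 574, 573, 502 and 596 genes. It became 1 without the replicate block, 2 without mitochondrial genes, 11 with the sorted library added, 20 with 10 or more barcode UMIs and 22 with no filter on low counts, and ran from 4 to 31 when 1 library was left out. The 6 genes kept their direction in all 80 gene fits that tested them and were called in 30. The named genes that changed direction were Rorb (0.12 in DESeq2, -0.50 to 0.54 with 1 library left out, positive without library 3) and Snap25 (-0.0016 in neurons of 10000 to 40000 UMIs, -0.034 to 0.14 with 1 library left out, negative without library 3). The difference from L5-S100b neurons was called for 36 genes in DESeq2, where 3329 adjusted p-values were missing, and for 15 to 62 with 1 library left out (15 without library 1, 30 without library 2). The difference from L6-Syt6 neurons was called for 86 genes in DESeq2, of which 59 were among the 120, and 7801 adjusted p-values were missing there. With 1 library left out it was called for 59 to 79 genes. With 2 libraries the spread rests on few degrees of freedom. The difference in median depth ran from 2105 to 3507 UMIs.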
